A study of Homo sapiens with 4 samples.

Results

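The comparison described here is between MHCC-97H cells given hypo-Migs and MHCC-97H cells given CD147KO-Migs. It asks how the recipient cells' mRNA differed when the migrasomes (Migs) of hypoxic donor cells did or did not carry CD147. A gene was included once any of the 4 libraries of the series held 10 or more of its reads, which left 19895 of the 58735 genes in the table. Programs were described over the 13342 of these with 50 or more reads in both libraries, called well-counted below. The recipients in all 4 conditions were labelled as MHCC-97H cells, an established metastatic line of hepatocellular carcinoma (HCC), and were harvested after 24 h. One culture received PBS, and the others received 2 µg of Migs. The normo-Migs came from MHCC-97H cells in normoxia, the hypo-Migs from the same line in hypoxia, and the CD147KO-Migs from CD147-knockout MHCC-97H cells in hypoxia. The Migs were isolated by filtration and ultrafiltration, and the knockout line was supplied by another laboratory. Each condition had 1 library, so 2 libraries were compared and the spread between cultures of a condition was not measured. The knockout was in the donor cells, so BSG, which encodes CD147, is no check of it in the recipients. Effects of losing CD147 from the Migs and of any other difference between the knockout line and its parent cannot be told apart.

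Migrasomes are vesicles that form on the retraction fibres of migrating cells and can be taken up by other cells. CD147 (basigin) is a transmembrane glycoprotein that induces matrix metalloproteinases and escorts lactate transporters to the cell surface. In hypoxia, the transcription factor HIF1 binds a short DNA element near genes of glycolysis, pH control and angiogenesis and activates them. Cell cycle genes are controlled in 2 main waves, by E2F factors for DNA replication and by the MuvB complex for mitosis. Interferon, oxidative stress and p53 each have their own set of target genes.

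Reads on genes numbered 40285223 with hypo-Migs and 35043203 with CD147KO-Migs. Levels are given as CPM, a gene's reads relative to all reads on genes, after scaling by the trimmed mean of M values (TMM). A count of 0 allows up to 3 reads, or 0.0745 CPM with hypo-Migs and 0.0856 with CD147KO-Migs. The library labelled PBS stood apart from the rest. Between it and each of the 3 Mig libraries, 1412 to 1504 genes differed by at least 4-fold, compared with 10 to 13 between any 2 of the Mig libraries. It held 0 reads of 194 genes that every Mig library counted 100 times or more. Whether it came from the same cells as the others was not tested. The PBS library was not part of the main comparison, where it served only in the filter on reads and in the scaling. It also entered the spread estimated by DESeq2 in an alternative test described below. Of 12 hepatocyte and HCC markers, KRT8 and KRT18 were abundant, whereas ALB, AFP, APOB, TTR, GPC3 and TF were at 0 reads with hypo-Migs. With CD147KO-Migs the first 5 were at 0 as well, and TF had 10 reads. Most defining hepatocyte and HCC markers were thus absent, and the identity of the line was not tested. The lists of 10 endothelial and 10 leukocyte markers summed to 9.22 and 7.85 CPM with hypo-Migs and to 8.34 and 7.97 with CD147KO-Migs, and their defining genes VWF, PTPRC and CD3E had 0 to 2 reads. Fibroblast and stellate cell markers summed to 222 and 225 CPM, with COL1A1, PDGFRB and THY1 the most abundant.

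The libraries of hypo-Migs and CD147KO-Migs were close to each other. Of the well-counted genes, 90.2% lay between 20% lower and 25% higher, and the median absolute log2 difference was 0.094. Each ratio of reads was given an exact 95% interval, which covers counting error only. By this interval 2562 well-counted genes (19.2%) were higher with hypo-Migs and 2694 (20.2%) were lower. A level at least 25% higher was reached by 502 genes (3.76%), and one at least 20% lower, the same ratio the other way round, by 590 (4.42%). Only 9 genes (0.0675%) were at least 2-fold higher and 12 (0.0899%) at least 2-fold lower. Among all 19895 genes tested, 685 (3.44%) were at least 2-fold higher and 639 (3.21%) lower, but 1205 of these 1324 genes had under 50 reads in both libraries.

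The share of genes beyond counting error depended on depth. It was 20.9% for genes with a mean of 50 to 100 reads and 53.9% for genes with at least 3000. In that last class the SD of the log2 ratio was 0.0877, above the 0.0281 that counting alone gives. The other 2 pairs of Mig libraries showed SDs of 0.0914 (hypo-Migs over normo-Migs) and 0.105 (normo-Migs over CD147KO-Migs) in the same class. In that class the ratio of hypo-Migs over CD147KO-Migs thus had the smallest SD of the 3, which share libraries. With 300 to 1000 reads its SD of 0.197 lay between the 0.184 and 0.207 of the others in that order. A gene called higher or lower below was beyond counting error, which says nothing of the spread between cultures.

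**Figure D1:**
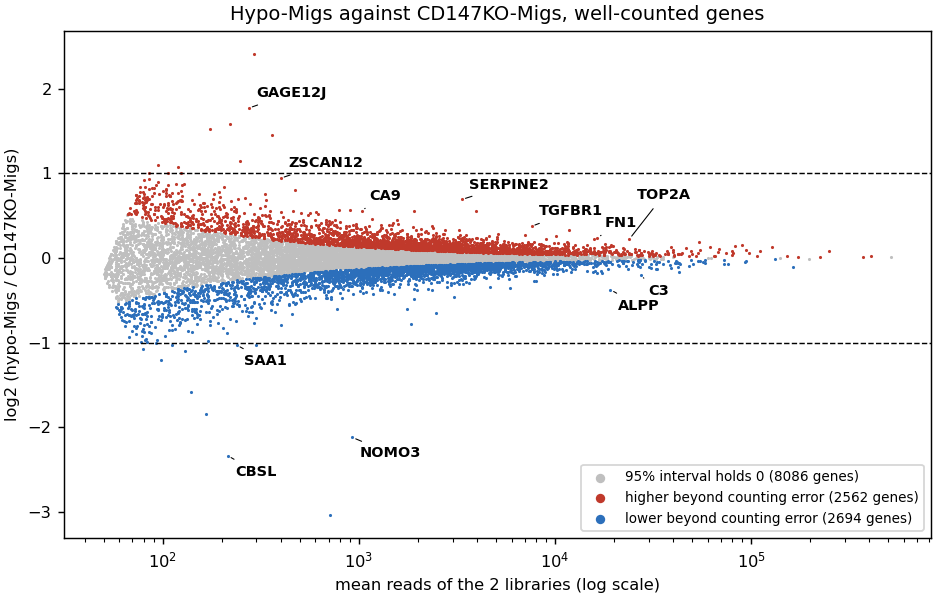
Log2 ratio of hypo-Migs over CD147KO-Migs against the mean reads of both libraries (log scale), 1 point per well-counted gene. Red points (2562) were higher and blue points (2694) lower beyond counting error, the 8086 grey points were within it, and dashed lines mark 2-fold. The points past 2-fold lie almost wholly at low reads, and genes such as TGFBR1, FN1, TOP2A and C3 sit close to 0 with many reads.

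The widest gaps were mostly in genes that have near-identical copies. Of the 9 well-counted genes at least 2-fold higher, 7 shared at least 20% of the 50-base stretches of their longest transcript with other genes, as did 8 of the 12 that were lower. CBSL, a copy of the cystathionine beta-synthase gene CBS, had 78 reads with hypo-Migs, 352 with CD147KO-Migs and 53 with normo-Migs. CBS itself had 3076, 2422 and 2203 reads, and the sum of both genes differed by a log2 of only -0.01 (95% interval -0.09 to 0.06). NOMO3, of a family of Nodal modulators, had 385 reads with hypo-Migs and 1468 with CD147KO-Migs. Summed with NOMO1 and NOMO2, the reads were 16687 and 14930, a log2 of -0.04. The GAGE genes, cancer-testis antigens, moved in opposite directions. GAGE12J had 439 and 111 reads, GAGE1 had 79 and 252, and GAGE12G had 0 and 159, whereas the sum over 7 GAGE genes was 999 and 868, a log2 of 0.01 (-0.13 to 0.14). The splicing factor genes U2AF1 and U2AF1L5 also went opposite ways, with 214 against 382 and 633 against 316 reads, and their sum differed by 0.08 (-0.06 to 0.23). SSX2, another cancer-testis antigen, had 64 against 131 reads, and its sum with SSX2B differed by 0.02. RGPD5 had 76 against 202 reads, and its family of RANBP2-like genes differed by 0.12. The sums for NPIPA1, DUXAP9, STAG3L1, TCEA1P2 and AC122718.1, each higher on its own by 0.84 to 1.58, ranged from -0.11 to 0.08. The reads of single copies are uncertain in these families. A sum says little where 1 gene holds most reads, as TCEA1 does with 5093 of the 5449 reads with hypo-Migs, RANBP2 with 13716 of 14342 and CBS with 3076 of 3154. TCEA1 itself was at a log2 of 0.03. How reads were assigned among copies was not tested.

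Some sums did differ. SAA1 and SAA2 encode acute-phase serum amyloid A proteins. Together they had 175 reads with hypo-Migs, 319 with CD147KO-Migs and 250 with normo-Migs, a log2 of -1.06 (-1.34 to -0.79). MTX1P1, a pseudogene of the mitochondrial import gene MTX1, had 1251 reads with CD147KO-Migs but 173 with hypo-Migs and 179 with normo-Migs, while MTX1 had 1154, 1198 and 1097. Their sum was lower with hypo-Migs by a log2 of -1.01. EIF3C and EIF3CL, which encode a subunit of translation initiation factor 3, summed to 2023 reads with hypo-Migs and 2400 with CD147KO-Migs, a log2 of -0.44 (-0.53 to -0.36). ALPP and ALPG, the placental alkaline phosphatases, summed to 19474 and 22355 reads, a log2 of -0.40. GTF2H2B had 501 against 81 reads, and with its copies, which encode a subunit of the repair and transcription factor TFIIH, the sum was higher by 0.27. TBC1D3D and GOLGA2P7 were lower also in the sum, by log2 differences of -0.51 and -0.73.

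**Figure D2:**
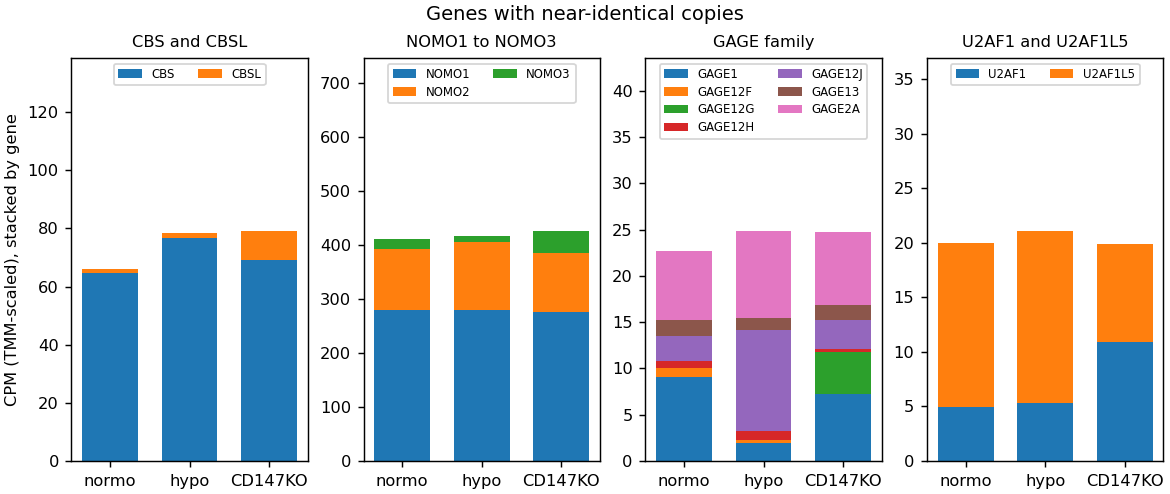
Stacked CPM of the genes of 4 families in the 3 Mig libraries, 1 library each, with 1 colour per gene. The share of each copy differed from library to library, while the stacks for hypo-Migs and CD147KO-Migs were of close height.

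Of the 12 protein-coding genes most clearly higher, 8 had no such copies. SERPINE2 (protease nexin 1, an inhibitor of thrombin and urokinase) stood at 108 CPM with hypo-Migs, 67.2 with CD147KO-Migs and 147 with normo-Migs. The log2 difference between hypo-Migs and CD147KO-Migs was 0.69 (0.62 to 0.76). TAGLN (transgelin, an actin-binding protein and TGF-beta target) was at 4.34 CPM with hypo-Migs, 2.34 with CD147KO-Migs and 4.81 with normo-Migs. ZSCAN12, a zinc finger gene, was at 13.7, 7.11 and 9.66 CPM in that order, a log2 of 0.94. RNF122 (a ubiquitin ligase), SPTLC3 (sphingolipid synthesis), MAP1A (a microtubule-associated protein), EFCAB13 and ZNF615 completed this set, with log2 differences of 0.78 to 1.10. In SERPINE2 and TAGLN the CD147KO-Migs library was the low one and normo-Migs was level with or above hypo-Migs. In RNF122 and MAP1A hypo-Migs was the high one, with 3.36 and 4.26 CPM compared with 1.97 and 2.47 for normo-Migs.

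The lower genes without copies were few. GJA3 (connexin 46), ZNF688 (a zinc finger gene) and REEP1 (an endoplasmic reticulum shaping protein) stood at 1.97, 4.04 and 7.87 CPM with hypo-Migs, compared with 4.08, 7.54 and 13.7 with CD147KO-Migs. Their log2 differences were -1.03, -0.89 and -0.80. For each of these 3 genes normo-Migs lay between the 2 levels, at 2.91, 5.90 and 9.51 CPM. HGD, an enzyme of tyrosine breakdown, was also past 2-fold, with 66 reads with hypo-Migs and 118 with CD147KO-Migs.

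At higher expression, of at least 100 CPM in both libraries, the differences were smaller but rested on more reads. The 8 genes most clearly higher with hypo-Migs included the type I receptor of TGF-beta, TGFBR1, and the matrix genes TGFBI and FN1. TGFBR1 (chr9:99104038-99154192, GRCh38) stood at 226 CPM with hypo-Migs, 174 with CD147KO-Migs and 214 with normo-Migs. The log2 difference was 0.37 (0.33 to 0.42). TGFBI, a matrix protein induced by TGF-beta, was at 345, 276 and 341 CPM in the same order, a log2 of 0.32. Fibronectin (FN1) was at 471, 399 and 461 CPM, and the integrin subunit ITGAV, which pairs to bind fibronectin and latent TGF-beta, was at 203, 168 and 201 CPM. In all 4 of these genes, normo-Migs stood closer to hypo-Migs than to CD147KO-Migs. NDRG1 and BNIP3 (both hypoxia genes), TOP2A (the topoisomerase of dividing cells) and the zinc importer SLC39A6 made up the rest, with log2 differences of 0.22 to 0.28. Normo-Migs was also closer to hypo-Migs in NDRG1, TOP2A and SLC39A6. In BNIP3 it was closer to CD147KO-Migs, with log2 differences of 0.21 for hypo-Migs over normo-Migs and 0.05 for normo-Migs over CD147KO-Migs.

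The 8 most clearly lower genes at this level were ALPP, SYT12, GAS1, GRINA, PC, FLOT2, FAM83A and C3. SYT12 (a synaptotagmin) was at 139 CPM with hypo-Migs, 178 with CD147KO-Migs and 130 with normo-Migs, a log2 of -0.36 (-0.41 to -0.30). GAS1, a membrane protein of growth arrest, was at 110, 139 and 106 CPM. Pyruvate carboxylase (PC), which feeds the citric acid cycle, was at 193, 233 and 170 CPM. CD147KO-Migs was the highest of the 3 Mig libraries for all 8 genes. That it stood above hypo-Migs followed from how the genes were chosen, and only its place beside normo-Migs did not. In FLOT2, normo-Migs lay between the others, at 154 CPM compared with 143 with hypo-Migs and 169 with CD147KO-Migs.

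The hypoxia response was the list with the highest median of the 61 lists examined. Of its 50 genes, all well-counted, 32 were higher with hypo-Migs beyond counting error (64.0%, against 19.2% of all well-counted genes) and 4 were lower. The median log2 difference was 0.13, or 9.58% higher, beside a median of 0.00 over all well-counted genes, and 6 genes were at least 25% higher with 0 lower by the same ratio. The list had deeper counts than average, with a median of 2687 reads per gene compared with 1137 over all well-counted genes, and the share beyond counting error rises with depth. CA9 led the list. It encodes carbonic anhydrase 9, which helps hypoxic cells to export acid, and lies at chr9:35673856-35681159 (GRCh38). Its level was 32.3 CPM with hypo-Migs, 21.9 with CD147KO-Migs and 32.8 with normo-Migs, a log2 of 0.56 (0.43 to 0.69) for hypo-Migs over CD147KO-Migs. Hypo-Migs and normo-Migs were level in CA9, with a log2 of -0.02 between them, and both were above CD147KO-Migs.

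The remaining hypoxia genes at least 25% higher were EFNA3, PFKFB4, LOX, ALDOC and VLDLR. EFNA3, an ephrin ligand, was at 10.7 CPM with hypo-Migs, 7.71 with CD147KO-Migs and 9.30 with normo-Migs, a log2 of 0.48. The glycolytic regulator PFKFB4 was at 20.5, 15.6 and 18.1 CPM, and lysyl oxidase (LOX), which cross-links collagen, at 55.9, 43.5 and 48.2 CPM. BNIP3, a mitophagy receptor, was at 133, 111 and 115 CPM. VEGFA, the main angiogenic factor, was at 133, 121 and 130 CPM, a log2 of 0.14 (0.08 to 0.20). On the length-scaled FPKM measure, the lactate dehydrogenase LDHA was at 567 FPKM with hypo-Migs, 518 with CD147KO-Migs and 575 with normo-Migs. Enolase (ENO1) did not move with the rest, at 981, 985 and 1045 FPKM. At the low end of the list, ANKRD37 and RORA had log2 differences of -0.25 and -0.21 on 58 to 67 reads, within counting error, and CITED2, an inhibitor of HIF1, was lower by a log2 of -0.12. The transcript of HIF1A itself was at 479 CPM with hypo-Migs and 466 with CD147KO-Migs. The 14 hypoxia genes that are also glycolysis genes had a median of 0.13, and so did the other 36. In contrast, the whole list of 38 glycolysis and pentose phosphate genes had 17 higher (44.7%), 11 lower (28.9%) and a median of 0.00. Over all well-counted genes these shares were 19.2% and 20.2%.

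The promoter of CA9 is shown because its hypoxia response element lies next to the start site. The letters are the 250 bases before the start in RefSeq, chr9:35673678-35673927 on the plus strand of GRCh38.p14. Capitals mark the core of the element, ACGTG or GCGTG searched on both strands.
CA9: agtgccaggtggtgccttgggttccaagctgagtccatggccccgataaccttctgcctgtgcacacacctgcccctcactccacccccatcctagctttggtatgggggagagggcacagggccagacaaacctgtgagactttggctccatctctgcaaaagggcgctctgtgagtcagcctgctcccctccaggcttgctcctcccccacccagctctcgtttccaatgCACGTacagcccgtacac
The only match was on the opposite strand and began 18 bases before the start. RefSeq promoters were matched for 43 of the 50 hypoxia genes, and 34 (79.1%) held this core, compared with 58.4% of the promoters of well-counted genes and 43.1% of all promoters. The median log2 difference was 0.13 for the 34 genes with it and 0.08 for the 9 without it. Of the 34 genes 21 were higher beyond counting error, as were 6 of the 9, so the shares did not follow the medians.

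Genes of mitosis were higher with hypo-Migs as well. The G2/M and mitosis list had 38 of 65 genes higher beyond counting error (58.5%, against 19.2% of all well-counted genes) and 3 lower, and its median log2 was 0.11. Its median of 3512 reads per gene lies in the class where 53.9% of genes were beyond counting error in either direction. The CD147KO-Migs library was the lowest of the 3 Mig libraries for 51 of the 65 genes and the highest for 1. Over all 13342 well-counted genes it was the lowest for 4520 and the highest for 4524. TOP2A was at 682 CPM with hypo-Migs, 585 with CD147KO-Migs and 667 with normo-Migs, a log2 of 0.22 (0.20 to 0.25). SGO1, which protects cohesin at centromeres, was at 13.5, 10.2 and 11.1 CPM, a log2 of 0.40. The spindle checkpoint kinase TTK was at 61.0, 48.0 and 56.7 CPM, and its partner in the checkpoint, MAD2L1, at 74.0, 61.9 and 74.8 CPM. Cyclin B1 (CCNB1) differed less, at 326, 313 and 347 CPM. PRC1, a spindle midzone protein, had a log2 of 0.41 on 115 and 75 reads, which was within counting error. The 3 lower genes were KIF18B, CCNF and GTSE1, with log2 differences of -0.08 to -0.11.

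DNA replication genes went the other way, though by less. Of 60 well-counted genes of DNA replication and G1/S, 24 were lower with hypo-Migs (40.0%, against 20.2% of all), 4 were higher, and 0 reached 25% higher or 20% lower. Their median was -0.03. E2F1, the factor that drives this wave, was at 94.5 CPM with hypo-Migs, 107 with CD147KO-Migs and 102 with normo-Migs, a log2 of -0.18 (-0.24 to -0.11). E2F8 and cyclin E1 (CCNE1) had log2 differences of -0.29 and -0.23, and the helicase subunit MCM5 one of -0.13. The primase subunit PRIM2 and the replication factor GINS3 were the highest, at 0.25 and 0.21. The cell cycle lists thus did not share a direction, since mitotic genes were higher and replication genes lower with hypo-Migs.

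The promoters of TOP2A and E2F1 are shown for the elements typical of the 2 waves, as the 250 bases before the start (GRCh38.p14, minus strand, chr17:40417897-40418146 and chr20:33686386-33686635). Capitals mark the cell cycle homology region (TTTGAA or TTCGAA, both strands) in TOP2A and the E2F site (TTTCCCGC or TTTGGCGC, both strands) in E2F1.
TOP2A: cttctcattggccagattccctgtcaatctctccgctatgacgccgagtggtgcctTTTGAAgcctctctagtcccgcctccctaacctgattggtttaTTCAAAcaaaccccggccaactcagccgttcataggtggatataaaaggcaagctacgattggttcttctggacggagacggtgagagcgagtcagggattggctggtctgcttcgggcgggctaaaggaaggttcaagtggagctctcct
E2F1: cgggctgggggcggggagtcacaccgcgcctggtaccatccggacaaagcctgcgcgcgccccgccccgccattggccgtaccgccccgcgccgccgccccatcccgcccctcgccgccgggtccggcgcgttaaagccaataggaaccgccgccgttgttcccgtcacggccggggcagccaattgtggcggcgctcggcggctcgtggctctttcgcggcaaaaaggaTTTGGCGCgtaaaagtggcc
The cell cycle homology region was found in 27 of the 55 matched promoters of the mitosis list (49.1%), compared with 9.33% of the promoters of well-counted genes and 14.6% of all promoters. The medians of mitosis genes with and without it were 0.10 and 0.09. The E2F site was in 14 of 47 matched replication promoters (29.8%), compared with 3.22% for well-counted genes and 1.96% for all promoters, with medians of -0.05 with it and -0.03 without.

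Chaperone genes were slightly higher with hypo-Migs. Of 39 heat shock and chaperone genes, 23 (59.0%, against 19.2% of all) were above and 3 below their level with CD147KO-Migs, and the median was 0.06, or 4.49% higher. The list has a median of 8306 reads per gene, and small differences pass counting error at that depth. The chaperones HSP90AA1 and HSPD1 were at 2285 and 1284 CPM with hypo-Migs, 2071 and 1181 with CD147KO-Migs, and 2405 and 1373 with normo-Migs. HSPA13, a chaperone of the microsomal fraction, was at 50.8, 41.9 and 47.4 CPM, a log2 of 0.28. HSPA1L was the highest by ratio, with 86 and 52 reads, a log2 of 0.51 (0.02 to 1.05). The regulator HSF1 was lower by a log2 of -0.12, as was the small heat shock protein HSPB1 by -0.11. The median of hypo-Migs over normo-Migs was -0.07.

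Complement genes were mostly lower with hypo-Migs than with CD147KO-Migs. Of the 16 that were well-counted, 10 were lower (62.5%, against 20.2% of all well-counted genes), 2 were higher, and the median log2 was -0.21. The central component C3 was at 678 CPM with hypo-Migs, 782 with CD147KO-Migs and 618 with normo-Migs, a log2 of -0.21 (-0.23 to -0.18). The proteases of the classical pathway, C1R and C1S, were at 46.4 and 83.8 CPM with hypo-Migs compared with 57.6 and 97.1 with CD147KO-Migs. C4A, with 58 and 90 reads, and C5, with 119 and 162, had log2 differences of -0.81 and -0.63. C4A has a close copy, C4B, so its own reads are uncertain. CD55, which shields cells from complement, was higher by a log2 of 0.09, and C4BPA had 128 and 99 reads, which was within counting error. The other 25 of the 41 genes on this list were not well-counted, C4B among them.

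Interferon-stimulated genes were lower in part. Of 59 well-counted genes, 22 were lower with hypo-Migs (37.3%, against 20.2% of all), 5 were higher, and the median was -0.07. The kinase CMPK2 and the RNA sensor relative DHX58 had the lowest ratios, with 65 and 96 reads with hypo-Migs and 106 and 141 with CD147KO-Migs, log2 differences of -0.88 and -0.74. IRF9, which binds DNA for the interferon receptor, had 100 and 138 reads. GBP1, a guanylate-binding protein, was at 22.7 CPM with hypo-Migs, 27.4 with CD147KO-Migs and 17.8 with normo-Migs, a log2 of -0.27 (-0.40 to -0.14). The antiviral genes MX1 and IFI27 were higher, by log2 differences of 0.25 and 0.12, and the interferon regulator IRF7 was at 0.17, within counting error. The abundant gene ISG15 stood at 157 CPM with hypo-Migs and at 154 with CD147KO-Migs, within counting error. CD147KO-Migs was the highest of the 3 libraries for 41 genes and the lowest for 1. Over all 13342 well-counted genes these numbers were 4524 and 4520. In the median normo-Migs was below both other libraries, with 0.16 for hypo-Migs over normo-Migs. The list median was thus farther from 0 between hypo-Migs and normo-Migs than between hypo-Migs and CD147KO-Migs.

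The GBP1 promoter is shown for its interferon-stimulated response element (GAAANNGAAA, both strands, in capitals). It covers the 250 bases before the start on the minus strand, chr1:89065209-89065458 (GRCh38.p14), and the match began 127 bases before the start.
GBP1: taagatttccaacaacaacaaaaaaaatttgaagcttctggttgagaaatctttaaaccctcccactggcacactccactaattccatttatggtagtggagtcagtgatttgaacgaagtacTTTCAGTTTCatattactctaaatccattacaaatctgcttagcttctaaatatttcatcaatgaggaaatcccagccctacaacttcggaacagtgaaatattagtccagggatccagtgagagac
Of 45 matched promoters on the interferon list, 24 (53.3%) held the element, compared with 2.28% of promoters of well-counted genes and 3.07% of all promoters. The median log2 difference was -0.04 for genes with it and -0.10 for the 21 without it.

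Targets of NRF2, the factor that answers oxidative stress, were lower in a majority. Of 38 well-counted targets, 24 were lower with hypo-Migs (63.2%, against 20.2% of all), 2 were higher, and the median was -0.06, or 4.34% lower. With a median of 4190 reads per gene, this list too is among the deeply counted ones. The ferritin heavy chain gene FTH1 was at 1071 CPM with hypo-Migs, 1205 with CD147KO-Migs and 1093 with normo-Migs, a log2 of -0.17 (-0.19 to -0.15). OSGIN1, an oxidative stress inhibitor of growth, and the glutathione peroxidase GPX2 had the lowest ratios, with 200 against 242 and 366 against 424 reads and log2 differences of -0.47 and -0.41. The aldo-keto reductase AKR1C1 was at 215, 243 and 175 CPM, and its reads may be shared with close relatives. The cystine importer SLC7A11 was the exception at the top of the list, at 57.4 CPM with hypo-Migs and 47.9 with CD147KO-Migs, a log2 of 0.26. HMOX1, heme oxygenase 1, stood at 34.6 and 32.8 CPM, within counting error.

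Targets of p53 were also lower. Of 35 well-counted targets, 16 were lower (45.7%, against 20.2% of all) and 3 were higher, with a median of -0.10. BBC3, which encodes the pro-apoptotic protein PUMA, was at 4.78 CPM with hypo-Migs, 8.05 with CD147KO-Migs and 4.67 with normo-Migs, a log2 of -0.74 (-1.02 to -0.48). The ceramidase ACER2 had 60 and 104 reads, a log2 of -0.96, and the metabolic regulator TIGAR 63 and 91 reads, a log2 of -0.71. The canonical targets CDKN1A and MDM2 did not differ beyond counting error, at 149 and 88.7 CPM with hypo-Migs and 152 and 87.1 with CD147KO-Migs. GADD45A, a stress gene of growth arrest, was higher by a log2 of 0.29. Among 34 genes of the pro-apoptotic BCL2 family and caspases, 13 were lower (38.2%, against the same 20.2%) and 6 higher, with a median of -0.08. BBC3 and BIK had the lowest ratios and HRK and CASP6 the highest, with log2 differences of -0.74, -0.62, 0.58 and 0.30. The pro-apoptotic list shared 5 of its genes with the p53 targets, BBC3 among them, and is not separate evidence. Of 40 inhibitors of apoptosis, 8 were higher (20%, against 19.2% of all well-counted genes) and 12 lower (30%, against 20.2%). Their median was 0.00.

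The genes the study ties to vasculogenic mimicry (VM), the forming of vessel-like channels by tumour cells, showed no common direction. Of 13 well-counted genes, 4 were higher with hypo-Migs (30.8%, against 19.2% of all) and 5 lower (38.5%, against 20.2%). The median log2 was -0.03, on a median of 3815 reads per gene. The 13 included STAT3, ROCK1 and ROCK2, which stayed within a log2 of -0.08 to 0.08, and ID1 at 0.02. The transcription factor TWIST1 was at 12.7 CPM with hypo-Migs, 17.4 with CD147KO-Migs and 13.6 with normo-Migs, a log2 of -0.45 (-0.62 to -0.28). SNAI1 was also lower with hypo-Migs, at 12.8 against 15.6 CPM. The matrix metalloproteinase MMP2 was higher, at 87.6 against 81.0 CPM, a log2 of 0.11. MMP9 with 8 and 12 reads and KDR with 0 and 2 reads were too shallow to compare, and the cadherin genes CDH1 and CDH5 were at -0.06 and 0.09 on 123 against 112 and 72 against 59 reads. AKT1 and AKT2 were lower by log2 differences of -0.07 and -0.14. The 47 well-counted genes of the PI3K/AKT core had 11 higher (23.4%) and 13 lower (27.7%), shares near the 19.2% and 20.2% over all well-counted genes, with a median of -0.02. PIK3CA and GAB1 were the highest at 0.40 and 0.37, and DEPTOR and RPS6KB2 the lowest at -0.35 and -0.20. BSG stood at 925 CPM with hypo-Migs, 971 with CD147KO-Migs and 999 with normo-Migs, a log2 of -0.07 (-0.09 to -0.05). Of the migrasome markers, ITGA5 was higher by 0.14, TSPAN4 was lower by -0.29, and EOGT, at 15.3 and 15.9 CPM, was within counting error. The lysophosphatidic acid receptor gene LPAR6 had 13 and 15 reads.

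Mesenchymal genes differed in both directions. Of 27 that were well-counted, 12 were higher with hypo-Migs (44.4%, against 19.2% of all) and 5 were lower, on a median of 3745 reads per gene, and the median log2 was 0.04. TAGLN, LOX and ITGAV were among the higher ones, and the lowest members were the collagen VI genes COL6A1 and COL6A2, at -0.15 and -0.14. The angiogenic list of VEGF, angiopoietin and ephrin genes had 10 of 27 higher (37.0%, against 19.2% of all) and 3 lower, with a median of 0.05. The VEGF receptor gene FLT4 and the TIE2 ligand ANGPT1 led it with 106 against 57 and 193 against 112 reads, log2 differences of 0.68 and 0.58. PDGFB had 571 reads with hypo-Migs and 394 with CD147KO-Migs, a log2 of 0.34, whereas PDGFA and EFNB2 were the lowest members at -0.18 and -0.14. The growth factor binding protein IGFBP3 was at 59.8 CPM with hypo-Migs, 40.8 with CD147KO-Migs and 54.9 with normo-Migs, a log2 of 0.55. The 49 well-counted genes of the TGF-beta and BMP pathways, with TGFBR1 among them, had a median of 0.00. Of these, 14 were higher (28.6%, against 19.2% of all) and 13 lower (26.5%, against 20.2%). Those at least 25% higher included FST, BMP2 and TGFBR1.

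Set beside normo-Migs, the programs fell into different patterns, with the caution that the 3 ratios share libraries. For hypoxia genes the median was 0.13 for hypo-Migs over CD147KO-Migs, 0.04 for hypo-Migs over normo-Migs and 0.09 for normo-Migs over CD147KO-Migs. Hypo-Migs was the highest library for 27 of the 50 genes, and CD147KO-Migs the lowest for 35. Over all 13342 well-counted genes these numbers were 4129 and 4520. For mitosis genes the 3 medians were 0.11, -0.07 and 0.15, and for chaperones 0.06, -0.07 and 0.14, so that normo-Migs was the highest and CD147KO-Migs the lowest. For p53 targets they were -0.10, 0.04 and -0.11, and for NRF2 targets -0.06, -0.01 and -0.08, so that hypo-Migs and normo-Migs were alike in the median and CD147KO-Migs was above both. For interferon-stimulated genes they were -0.07, 0.16 and -0.22.

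A trend with base composition ran through the ratio. The median log2 of hypo-Migs over CD147KO-Migs was 0.05 in the tenth of genes with the lowest GC content and -0.08 in the tenth with the highest. Hypo-Migs over normo-Migs showed 0.06 and -0.07, and normo-Migs over CD147KO-Migs -0.01 and -0.01, so the trend went with the hypo-Migs library. After its removal, together with a weaker trend with gene length, the medians were 0.13 for hypoxia, 0.08 for mitosis, 0.06 for chaperones, -0.20 for complement, -0.09 for interferon-stimulated genes, -0.05 for NRF2 targets and -0.10 for p53 targets. The mitosis median moved the most of these, from 0.11 to 0.08. BSG, with a GC content of 61.6%, moved from -0.07 to 0.00.

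At the edge of detection, some protein-coding genes had reads with hypo-Migs or CD147KO-Migs and 3 or fewer in the other. PCSK5, a proprotein convertase, had 37 reads with hypo-Migs, 0 with CD147KO-Migs and 13 with normo-Migs. It was 10.8-fold higher with hypo-Migs when 0 is taken as 3 reads, and the counting interval of the ratio began at 8.32. LRRTM2 had 26, 0 and 13 reads, 7.56-fold higher on the same terms, with a counting interval that began at 5.72. PDE6A, a phototransduction enzyme, had 32 reads with hypo-Migs, 1 with CD147KO-Migs and 0 with normo-Migs, a ratio of 27.9 with a counting interval of 4.66 to 1140. In the other direction GSDMC, a gasdermin, had 0 reads with hypo-Migs and 30 with CD147KO-Migs. It was 11.5-fold lower with hypo-Migs when 0 is taken as 3 reads, and the counting interval began at 8.76-fold. PNCK, a kinase, had 2 and 30 reads, ELMO1 (a regulator of engulfment) 3 and 28, and PRODH (proline dehydrogenase) 3 and 26. MCMDC2 and RBM44 had 32 against 3 and 28 against 2 reads. Each of these genes stayed under 1 CPM in both libraries. They were picked for this very gap among all genes, and their counting intervals do not allow for that choice. The intervals are therefore no test of a difference. PDE6A reached the 10 reads of the filter only with hypo-Migs, and GSDMC only with CD147KO-Migs.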

How the data were processed

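RNA-seq libraries of MHCC-97H cells, 1 per condition, were compared. The authors deposited raw read counts per gene, and FPKM values in which they corrected the counts for transcript length and depth. The submitters' processing notes name CASAVA 1.8, fastp, HISAT2 2.0.5, featureCounts 1.5.0-p3 and hg38. The strand setting is not given in the sources used here, so reads of overlapping genes cannot be told apart by strand. Identifiers and coordinates matched GENCODE release 29, from which symbols were taken, since 27 symbols in the count table had become dates.

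The counts were scaled by TMM over the 4 libraries (edgeR 4.0.16 in R 4.3.3), and log2 differences used a prior count of 2. No p-value is given, since 1 library per condition leaves no spread between cultures. Instead the exact Clopper-Pearson interval (95%) of the ratio of reads was computed with scipy 1.17.1. It covers counting error only, since reads lack molecular identifiers and may repeat a molecule. Genes were called at 2-fold, and at 25% higher or 20% lower, where this interval excluded 0. The calls were also run on simulated reads with known changes. These reads held counting error only, so that run says nothing of the spread between cultures. Libraries were compared at 4-fold with 0.05 added to each CPM, over genes with 50 reads or more in either. DESeq2 1.42.0 served in alternatives.

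Named genes were those of the study, and the 12 higher and 12 lower protein-coding genes whose interval lay farthest from 0, with 8 and 8 at 100 CPM or more. To these were added the 5 deepest genes in each direction with 3 reads or fewer in 1 library, 4 and 4 long noncoding RNAs, and the 2 highest and 2 lowest members of each list described. Some genes that this rule names are not reported here, and further members were chosen after their values were seen. The 61 gene lists were written by hand, and members and lists were chosen with earlier results of these data known. Genes were taken as copies when at least 20% of 50-base stretches were shared in GENCODE transcripts, and the sums over copies and the motif search were chosen after values were seen. Columns of no sample numbered 0. The other experiments of the study were not analysed here.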

Additional observations from a re-analysis of the deposited data

How the results depend on the processing

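Of 60 list medians, the 14 at least 0.05 from 0 kept their sign under all 7 alternatives tried for them: 3 other scalings, a prior count of 0.5, log2(FPKM + 0.1), removal of the GC and length trend, and the looser filter on reads. Another scaling moved no list median by more than 0.00441, the trend removal moved none by more than 0.0474, and the looser filter moved 1, hepatocyte secreted proteins, by 0.203. Counts of genes past a fold were less stable. Among well-counted genes, the 9 higher and 12 lower became 4 and 3 on log2(FPKM + 1), 0 and 2 with at least 200 reads in both libraries, and 66 and 58 with at least 20. Protein-coding genes alone gave 3 higher. Among all tested genes, the 685 higher and 639 lower became 25 and 30 on log2(FPKM + 1), 355 and 348 on log2(FPKM + 0.1), and 240 and 236 for protein-coding genes alone. They were 120 and 108 by edgeR's exact test with an assumed coefficient of variation of 0.1. DESeq2 with the 4 libraries taken as replicates called 0 genes in either direction in both sets. Its spread was estimated across different conditions, with the PBS library that stood apart among them. A count of 0 by DESeq2 therefore cannot show that the libraries of hypo-Migs and CD147KO-Migs are alike. Without a limit on the fold, DESeq2 called 0 well-counted genes, edgeR's exact test 12 higher and 15 lower, and edgeR's binomial test 1887 and 1970. The 502 higher and 590 lower genes past 25% higher or 20% lower became 185 and 238 with at least 200 reads in both libraries. HIF1A alone among the named genes beyond counting error changed sign, to a log2 of -0.018 after removal of the GC trend. Depth limits the low genes, and the absence of a second culture per condition limits all of them. No paired analysis was possible because each condition had 1 library.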

Other observations

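Of 27 well-counted genes of cholesterol synthesis, 12 were lower (44.4%, against 20.2% of all well-counted genes) and 2 higher, with a median log2 of -0.09. The mevalonate pathway kinases PMVK and MVK were at 24.2 and 14.4 CPM with hypo-Migs and 32.4 and 17.7 with CD147KO-Migs, log2 differences of -0.42 and -0.29, whereas NSDHL was higher by 0.16. This list differed more from normo-Migs, with a median of -0.14 for hypo-Migs over normo-Migs, and its median was -0.05 once the GC trend was removed. Of 28 genes of MHC class I and antigen presentation, 12 were lower (42.9%) and 4 higher, and the median was -0.08. The immunoproteasome subunit PSMB8 was at 66.2 CPM with hypo-Migs, 84.2 with CD147KO-Migs and 67.8 with normo-Migs, a log2 of -0.35 (95% interval -0.42 to -0.27), and PSMB10 had 164 and 222 reads, a log2 of -0.63. HLA-DMA was lower by -0.54, and ERAP2 and CIITA, the highest members, stood at 0.21 and 0.11, within counting error. Of 17 well-counted clustered histone genes, 7 were lower (41.2%, against 20.2% of all) and 2 higher (11.8%, against 19.2%), with a median of -0.21. HIST1H3E and HIST1H4H were the lowest at -0.72 and -0.55, and HIST1H2BN and HIST1H2AG the highest at 0.57 and 0.52, on 63 to 265 reads. Most replication-dependent histone transcripts carry no poly-A tail. The study's methods describe poly-A selection, whereas the labels name only a SMARTer mRNA kit.

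Long noncoding RNAs followed no one direction. Of 805 that were well counted, 103 were higher and 126 lower with hypo-Migs. Over all 13342 well-counted genes the numbers were 2562 (19.2%) and 2694 (20.2%). UCA1, first described in bladder cancer, was at 28.4 CPM with hypo-Migs, 19.2 with CD147KO-Migs and 27.2 with normo-Migs, a log2 of 0.56 (0.42 to 0.70). ZEB1-AS1, antisense to ZEB1, had 169 and 69 reads, a log2 of 1.07, LINC01234 had 110 and 53 reads, a log2 of 0.83, and AC068587.4 had 145 and 69, a log2 of 0.86. On the lower side, LINC01833 had 68 and 118 reads and PXN-AS1 had 108 and 174, log2 differences of -0.97 and -0.87. AC092720.1 had 55 and 103 reads and LINC00668 had 60 and 106, log2 differences of -1.07 and -0.99. Without the strand setting, reads of antisense genes cannot be told from those of their partners. Mitochondrial genome transcripts were nearly level, with a median of 0.04. Of 15, 10 were higher (66.7%, against 19.2% of all) and 1 lower, on a median of 79408 reads per gene. They took 5.16% of the reads with hypo-Migs and 5.06% with CD147KO-Migs.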
